A study of Mus musculus with 20 samples.

Results

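The insulin-like growth factor (IGF) system was examined across 7 mouse cell groups through 9 genes, picked by their symbols in the deposited annotation out of 43432 annotated genes: the ligand gene Igf1, the receptor gene Igf1r, the adaptor gene Irs1 and the binding protein genes Igfbp2, Igfbp3, Igfbp4, Igfbp5, Igfbp6 and Igfbp7. All 9 were found, and all 9 held enough counts to enter the fit. The study looked at host cells of nude mice that were exposed to SU3, a human glioma stem cell line, in culture or in a transplanted tumour, and 5 of the groups are lines whose labels describe a malignant transformation. C12 (3 libraries) is labelled as macrophages transformed during culture in vitro with SU3 and peritoneal washing cells, ih_CTC (3) as transformed macrophages out of a xenograft in the peritoneum, and ih_DCTC (3) as dendritic cells transformed in culture with SU3 and bone marrow dendritic cells. ih_STC_BM (3) is labelled as transformed mesenchymal stem cells grown from a transplanted SU3 tumour, in a mouse whose marrow was damaged and rebuilt, and ih_BCTC (3) as transformed oligodendrocytes regrown from an SU3 tumour of the brain. The untransformed groups were MDSC (3), myeloid-derived immunosuppressive cells, and MSC (2), mesenchymal stem cells of normal mouse bone marrow. Every group carries the strain label Nude Mouse. The labels describe culture in DMEM with fetal bovine serum and monoclonal culture, which limits each line to what was recovered from it, and they name no animal, age, passage or batch for any library.

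IGF1 and IGF2 are secreted growth factors that bind the tyrosine kinase receptor IGF1R, which passes the signal through IRS adaptor proteins to PI3K and AKT and so promotes growth and survival. Most IGF outside cells is held by IGF binding proteins, which lengthen its life, keep it from the receptor or release it when proteases cut them. In bone marrow, stromal cells and macrophages are known sources of IGF1, and gliomas are among the tumours in which IGF receptors and binding proteins have been studied.

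Expected counts per library summed to 8794777 to 12400640. Levels are given in CPM, counts scaled to a common library size, on TMM-scaled library sizes, and levels of different genes are compared only after division by exon length (CPM per kilobase). Gene positions are those of the deposited annotation, whose build no source used here gives; 7 of the 9 genes have the same start and end in GENCODE M21, an annotation of GRCm38. The labels were checked against marker genes. The 14 macrophage and monocyte markers summed to 38.4 to 197.5 CPM in the line libraries, against 9737 to 9985 CPM in MDSC and 20940 to 28270 CPM in MSC. In a line, 1 to 3 of the 14 reached a mean of 5 CPM, against all 14 in MDSC and in MSC. C1qa, a macrophage marker, had 0 counts in C12. The dendritic cell markers summed to 6.39 to 13.3 CPM in ih_DCTC, where Siglech had 0 counts, and Olig2, Sox10 and Mog, which define oligodendrocytes, had 0 counts in ih_BCTC. Fibroblast and mesenchymal markers summed to 4960 to 20870 CPM in the lines, 1004 to 1052 CPM in MDSC and 7664 to 7790 CPM in MSC. Granulocyte markers (38600 to 41220 CPM) and erythroid markers (15400 to 16210 CPM) were high in MDSC. These levels go against the labels macrophage, dendritic cell and oligodendrocyte. The summed macrophage markers of MSC, above the sum of MDSC, likewise go against a population of mesenchymal stem cells alone. Lyz2 was the largest part of that sum in MSC (17750 and 13130 CPM), and Ptprc, Itgam and Cd14 were lower in MSC than in MDSC. Each comparison with MSC is one with libraries that hold both marker sets. All groups are called by their label names. The share of mapped reads that fell in introns was 1.02% to 8.52% in the lines, 9.64% to 10.4% in MDSC and 2.07% and 3.09% in MSC.

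**Figure D1:**
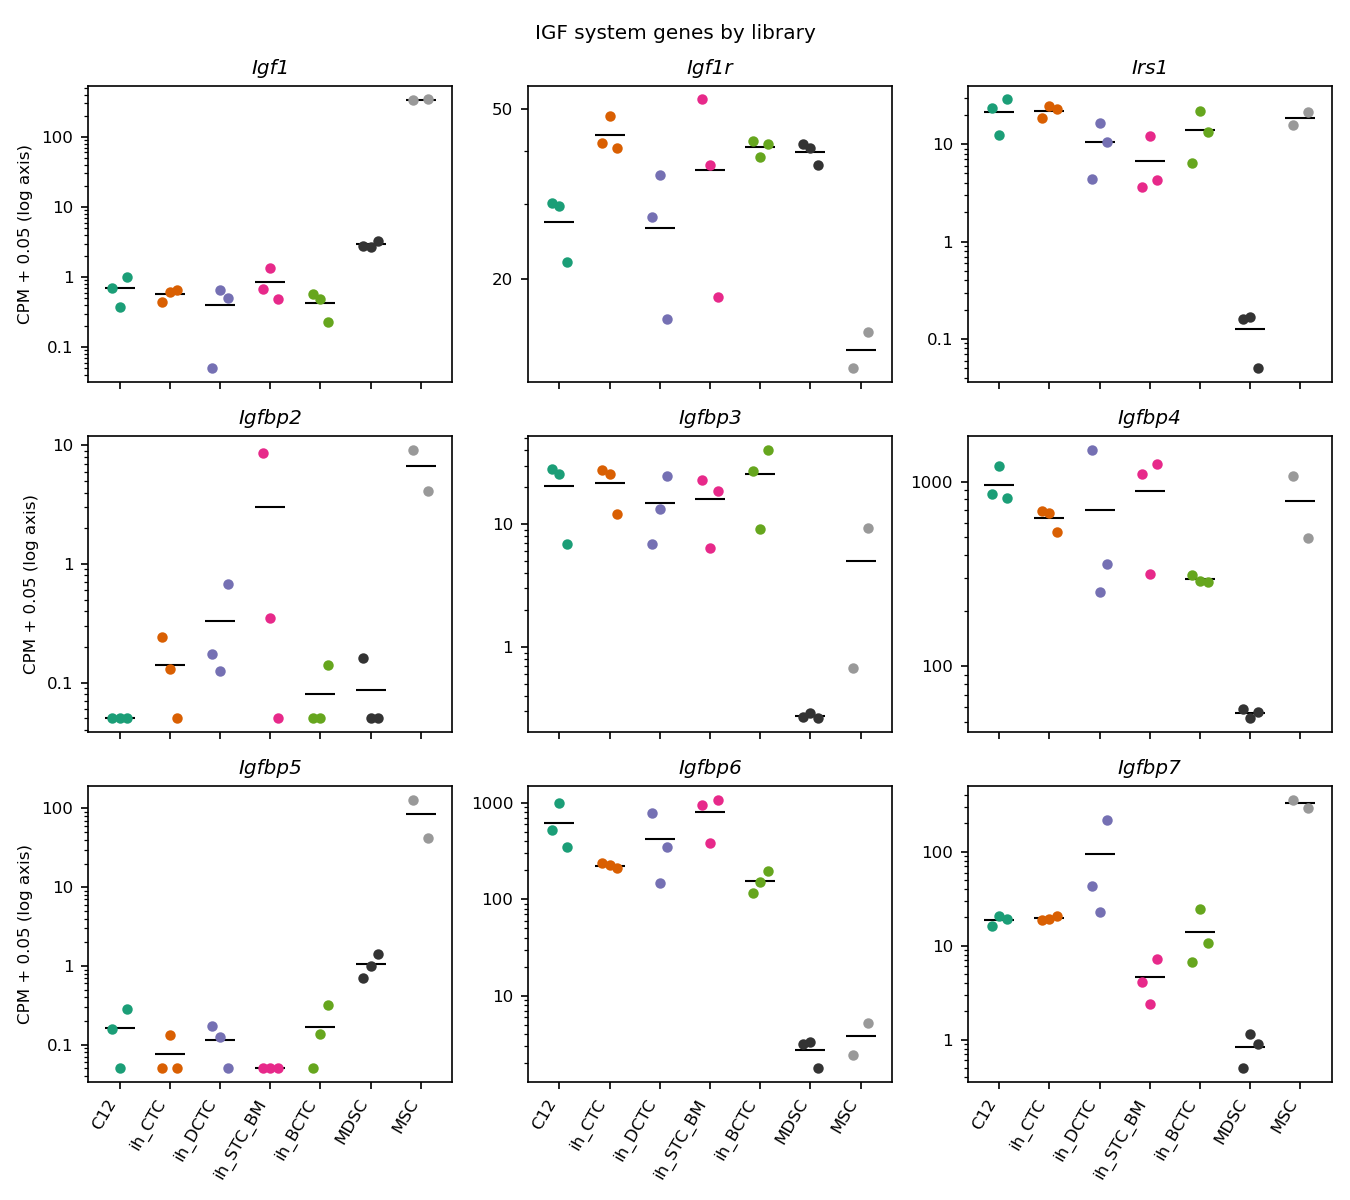
Level of each of the 9 genes in each of the 20 libraries (points; CPM + 0.05 on a log axis) with the group mean (line), for the 5 lines, MDSC and MSC. Igf1 and Igfbp5 stand highest in MSC and at or under 1.32 CPM in every line library, whereas Igfbp6 is at 117 CPM or more in every line library and at 5.18 CPM or less in MDSC and MSC.

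Each gene differed among the 7 groups (9 of 9, edgeR F test with Benjamini-Hochberg adjustment, against 76.8% of all 15779 tested genes). For Igfbp2 and Igfbp5 this is a description, since both entered the fit through MSC alone, where they are high. With most tested genes called, the count sets the members apart from no other genes. Against MDSC, the same 5 genes, Irs1, Igfbp3, Igfbp4, Igfbp6 and Igfbp7, were higher in all 3 lines labelled as macrophages or dendritic cells, and Igf1 and Igfbp5 were lower in all 3. Fibroblast and mesenchymal markers were higher in these lines than in MDSC as well, and granulocyte and erythroid markers were lower; their part in these differences was not tested. That made 5 of 9 members higher and 2 lower in C12, where 31.3% and 30.5% of tested genes were called, 5 higher and 2 lower in ih_CTC (28.2% and 27.1%) and the same numbers in ih_DCTC (31.2% and 28.1%). The 3 comparisons share the MDSC libraries. Igfbp3 reached 10 counts in 2 libraries in the 5 lines alone, and Igf1 in MDSC and MSC alone. Both thus entered the fit through groups where they are high, and their calls against MDSC are a description. The median log2 fold change of the members was 4.11 in C12, 3.52 in ih_CTC and 3.65 in ih_DCTC, against 0.03, 0.08 and 0.09 over all tested genes, and without Igfbp2, which had 3 or fewer counts in both groups, it was 4.33 in C12 and 4.07 in ih_CTC. The lower members had few counts in the lines. With intron share as a covariate 0 of them were lower in C12 and 1 in ih_DCTC. Leaving out the line libraries under 3% intron reads left the third C12 library alone, so no count is given for C12 there.

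The same members were counted against MSC. ih_STC_BM, the line the labels tie to mesenchymal stem cells, had 2 members higher and 3 lower (14.8% and 17.4% of tested genes), and ih_BCTC had 2 higher and 4 lower (15.9% and 20.8%). C12 had 2 higher and 4 lower (14.7% and 18.4%), ih_CTC 2 and 4 (14.7% and 19.9%), ih_DCTC 1 and 4 (16% and 18.1%), and MDSC 1 and 7 (20.4% and 25.6%). These 6 comparisons share the 2 MSC libraries, and Igfbp2 and Igfbp5 had 10 counts in 2 libraries of MSC alone, so that they entered the fit through the group where they are high; no direction is read from these counts. Median log2 fold changes of the members were -1.14 in ih_STC_BM, -1.41 in ih_BCTC, 0.21 in C12, -0.30 in ih_CTC, -0.82 in ih_DCTC and -6.40 in MDSC, against medians of all tested genes of 0.02, 0.04, 0.00, 0.04, 0.05 and -0.07. Without the first MSC library, Igf1r was no longer called in ih_STC_BM, ih_BCTC or C12, which left 1 member higher in each. Separate cultures or animals are not named for the libraries of a group, and each p-value thus reflects only how far these libraries lie apart. The MDSC libraries lay closest together. Set against counting noise, the mean chi-square per gene between 2 libraries of a group was 1.76 to 3.56 in MDSC. It was 27.97 to 311.15 in the lines and 45.65 in MSC. Whether the MDSC libraries come from separate preparations is not named, and comparisons with MDSC carry that limit.

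**Figure D2:**
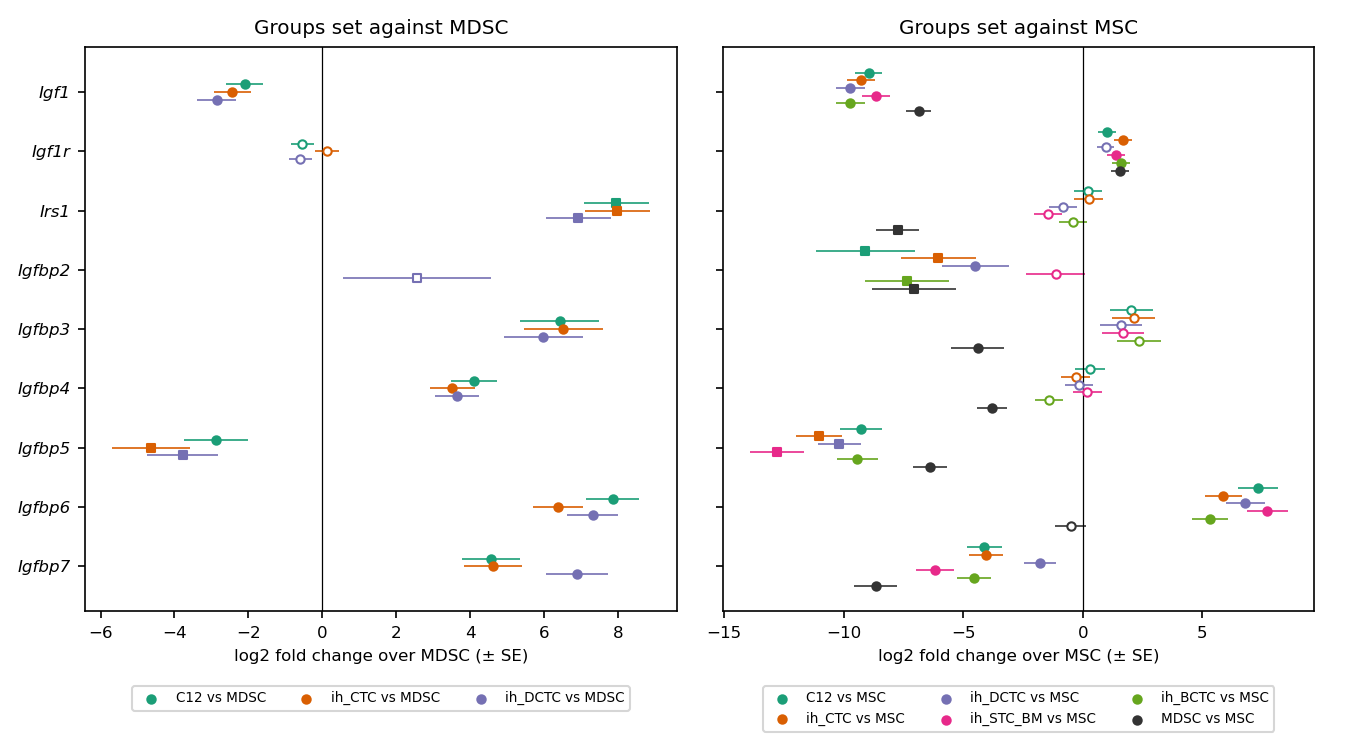
Log2 fold change (± SE) of each gene in C12, ih_CTC and ih_DCTC over MDSC (left) and in C12, ih_CTC, ih_DCTC, ih_STC_BM, ih_BCTC and MDSC over MSC (right). Filled symbols have an edgeR adjusted p under 0.05; squares mark genes with 3 or fewer counts in one group, whose fitted value is no bound, and genes with 3 or fewer in both groups are left out. Igfbp6 lies right of 0 in every line on both sides, and Igf1 and Igfbp5 lie left of 0 in every line.

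Igf1 (ENSMUSG00000020053, chromosome 10, 87858265 to 87937042, plus strand) encodes the IGF1 ligand. It was at 0.659, 0.329 and 0.941 CPM in C12, 0.385, 0.571 and 0.599 CPM in ih_CTC, 0, 0.602 and 0.454 CPM in ih_DCTC, 0.617, 1.32 and 0.44 CPM in ih_STC_BM and 0.526, 0.43 and 0.181 CPM in ih_BCTC. The MDSC libraries held 2.76, 2.65 and 3.2 CPM and the MSC libraries 329.5 and 341 CPM. Every line library lay below every MDSC library, and every MDSC library lay far below both MSC libraries, so that no line overlapped either group. Log2 fold changes were -8.65 ± 0.57 (SE; edgeR adjusted p = 7.28e-09) in ih_STC_BM and -9.72 ± 0.60 (SE; edgeR adjusted p = 2.57e-09) in ih_BCTC against MSC. Against MDSC the values were -2.10 ± 0.50 (SE; edgeR adjusted p = 0.00148) in C12, -2.43 ± 0.50 (SE; edgeR adjusted p = 0.000542) in ih_CTC and -2.86 ± 0.53 (SE; edgeR adjusted p = 0.000184) in ih_DCTC. In C12, with intron share as a covariate, it was -0.55 (edgeR adjusted p = 0.525). Igf1 reached 10 counts in 2 libraries in MDSC and MSC alone, the groups where it is high. Its values in the lines against them are thus a description. Neighbouring lines in the order of levels did not pass the test against each other (adjusted p of 0.712 to 1), while ih_STC_BM, the highest line, lay below MDSC by 1.79 and MDSC below MSC by 6.86 on the log2 scale (edgeR adjusted p = 0.00477 and 2.08e-08). The sum of the macrophage markers, 20940 to 28270 CPM in MSC, moved with Igf1 between MSC, MDSC and the lines. Of these markers, Ptprc, Itgam and Cd14 were lower in MSC than in MDSC. The part of the markers in these differences was not tested. In bulk RNA, fewer cells of a type and less RNA per cell cannot be told apart.

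The growth hormone target gene Igf1 had 13 to 21 counts summed over the 3 libraries of a line, against 77 in MDSC and 7049 in the 2 MSC libraries. Igf2, the other IGF ligand gene and no member of the set, showed a different pattern. It was at 6.06, 5.22 and 5.05 CPM in ih_CTC and 2.62, 0.0752 and 0.816 CPM in ih_DCTC, at 0.329 CPM or less in the libraries of C12, ih_STC_BM and ih_BCTC, at 0.361 CPM or less in MDSC and at 82.8 and 8.61 CPM in MSC. ih_CTC was the line with Igf2 above 5 CPM in all 3 libraries, and it still lay below both MSC libraries, with a fitted log2 difference of -3.07 ± 0.87 (SE; edgeR adjusted p = 0.0113). The MSC libraries differed from each other for Igf2 far more than for Igf1.

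Igf1r (ENSMUSG00000005533, chromosome 7, 67952859 to 68226780, plus strand) encodes the receptor, and its adjusted p over the 7 groups was the highest of the 9 (edgeR F test, 0.0115). It was at 30.1, 29.6 and 21.9 CPM in C12, 41.6, 48.1 and 40.4 CPM in ih_CTC and 27.9, 34.9 and 16.1 CPM in ih_DCTC. The other lines held 52.6, 36.9 and 18 CPM (ih_STC_BM) and 42, 38.5 and 41.3 CPM (ih_BCTC), MDSC 41.4, 40.5 and 36.9 CPM and MSC 12.3 and 14.9 CPM. All 15 line libraries and all 3 MDSC libraries exceeded both MSC libraries, while ih_CTC, ih_STC_BM and ih_BCTC overlapped MDSC. C12 and ih_DCTC were below MDSC in all 3 libraries without passing the test; C12 was at -0.54 ± 0.32 (SE; edgeR adjusted p = 0.152) and ih_DCTC at -0.59 ± 0.32 (SE; edgeR adjusted p = 0.124). ih_DCTC was called lower than MDSC by DESeq2 (-0.73, adjusted p = 0.0466) and by edgeR without the libraries under 3% intron reads (-0.65, adjusted p = 0.0406). Igf1r was higher than MSC by 1.67 ± 0.38 (SE; edgeR adjusted p = 0.00245) in ih_CTC, 1.58 ± 0.38 (SE; edgeR adjusted p = 0.00351) in ih_BCTC, 1.40 ± 0.38 (SE; edgeR adjusted p = 0.00892) in ih_STC_BM and 1.54 ± 0.38 (SE; edgeR adjusted p = 0.00325) in MDSC. C12 passed narrowly (1.0 ± 0.37, SE; edgeR adjusted p = 0.0483) and ih_DCTC did not (0.95 ± 0.37, SE; edgeR adjusted p = 0.0577), though it did under upper quartile scaling, DESeq2, the intron covariate, without the low-intron libraries and without the third ih_DCTC library (0.84 to 1.21). The C12 value lay at 0.86 to 1.14 without one library or another, and 4 of the 5 such fits did not call it. No neighbours in the order of levels passed the test (adjusted p of 0.0577 to 0.983).

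Irs1 (ENSMUSG00000055980, chromosome 1, 82233101 to 82291416, minus strand) encodes the adaptor that links the receptor to PI3K. It was at 23.5, 12.3 and 28.7 CPM in C12, 18.5, 24.4 and 23 CPM in ih_CTC, 4.32, 16.5 and 10.5 CPM in ih_DCTC, 3.57, 12.2 and 4.24 CPM in ih_STC_BM and 6.41, 21.9 and 13.3 CPM in ih_BCTC. MDSC held 2 counts in all, or 0.11, 0.12 and 0 CPM, and MSC was at 15.8 and 21.5 CPM. The lines and MSC overlapped in C12, ih_CTC, ih_DCTC and ih_BCTC, and MDSC stood apart from all of them. Irs1 was 299-fold (95% counting interval 82.4 to 2473) higher in C12 than in MDSC, 297-fold (95% counting interval 81.8 to 2453) higher in ih_CTC and 153-fold (95% counting interval 42.1 to 1268) higher in ih_DCTC, with edgeR adjusted p of 6.68e-07, 6.13e-07 and 3.29e-06. These intervals cover counting error only. Against MSC no line passed the test in the fit of all libraries, with log2 fold changes of -1.47 in ih_STC_BM (edgeR adjusted p = 0.0677), where all 3 libraries were below both MSC libraries, and of -0.82 to 0.24 in the other lines (adjusted p of 0.31 to 0.833). Without the second ih_STC_BM library the first of these was -2.27 (edgeR adjusted p = 0.00824), and with intron share as a covariate -2.16 (adjusted p = 0.000543). That covariate also took ih_DCTC to -1.50 (edgeR adjusted p = 0.00831) and ih_BCTC to -1.39 (edgeR adjusted p = 0.0199), both called. Irs2, which encodes the adaptor prominent in liver and blood cells, ran the other way between the untransformed groups. It was at 18.4 to 83.3 CPM in the line libraries, at 427, 392 and 376 CPM in MDSC and at 4.06 and 9.04 CPM in MSC. The lines were lower than MDSC in C12, ih_CTC and ih_DCTC (-3.55 to -3.88) and higher than MSC in all 5 lines (2.04 to 2.69, edgeR adjusted p of 0.00155 to 0.00863).

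Igfbp6 (ENSMUSG00000023046, chromosome 15, 102144362 to 102149511, plus strand) encodes the binding protein that prefers IGF2 over IGF1. It was at 519, 990.3 and 352 CPM in C12, 237, 224 and 209 CPM in ih_CTC, 780.2, 148 and 348 CPM in ih_DCTC, 942, 386 and 1081 CPM in ih_STC_BM and 117, 150.2 and 195 CPM in ih_BCTC. It was at 3.09, 3.25 and 1.71 CPM in MDSC and 2.4 and 5.18 CPM in MSC. The lowest line library thus exceeded the highest library of either untransformed group by a wide margin. Against MDSC the log2 fold change was 7.85 ± 0.71 (SE; edgeR adjusted p = 5.73e-08) in C12, 6.38 ± 0.67 (SE; edgeR adjusted p = 3.35e-07) in ih_CTC and 7.31 ± 0.69 (SE; edgeR adjusted p = 9.96e-08) in ih_DCTC. Against MSC it was 7.72 ± 0.84 (SE; edgeR adjusted p = 2.07e-06) in ih_STC_BM, 5.33 ± 0.76 (SE; edgeR adjusted p = 2.89e-05) in ih_BCTC and between 5.87 and 7.34 in C12, ih_CTC and ih_DCTC (edgeR adjusted p of 3.08e-06 to 1.41e-05). MDSC and MSC did not differ by the test (-0.51 ± 0.64, SE; edgeR adjusted p = 0.539). Of the 9 members, Igfbp6 was the one called higher in every line against the group or groups it was set against.

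Igfbp4 (ENSMUSG00000017493, chromosome 11, 99041244 to 99054392, plus strand) encodes a binding protein that keeps IGF from the receptor until the protease PAPP-A cuts it. It was at 854, 1214 and 813 CPM in C12, 696, 679 and 536 CPM in ih_CTC, 1492, 254 and 356 CPM in ih_DCTC, 1106, 315 and 1243 CPM in ih_STC_BM and 312, 288 and 285 CPM in ih_BCTC. MDSC held 58.5, 52.1 and 56.5 CPM and MSC 1072 and 492 CPM. Every line library lay above MDSC, and the lines other than ih_BCTC overlapped MSC. The log2 fold change over MDSC was 4.11 ± 0.62 (SE; edgeR adjusted p = 2.26e-05) in C12, 3.52 ± 0.60 (SE; edgeR adjusted p = 8.72e-05) in ih_CTC and 3.65 ± 0.60 (SE; edgeR adjusted p = 6.12e-05) in ih_DCTC. None of the lines passed the test against MSC: ih_BCTC, below both MSC libraries, was at -1.41 ± 0.60 (SE; edgeR adjusted p = 0.0755), and the other lines were at -0.30 to 0.30 (adjusted p of 0.747 to 0.88). The sign of these small values depended on single libraries, and with intron share as a covariate ih_CTC was above MSC (1.14, edgeR adjusted p = 0.0457). Without the line libraries under 3% intron reads Igfbp4 was lower than MSC in ih_BCTC (-1.44, edgeR adjusted p = 0.000432) and ih_DCTC (-1.43, adjusted p = 0.00133). ih_STC_BM, of which the second library alone was left, was at -1.34. The cut spared MSC, whose first library had 2.07% intron reads and 1072 CPM of Igfbp4. These values thus set lines without low-intron libraries against an MSC group that kept one.

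Igfbp3 (ENSMUSG00000020427, chromosome 11, 7206086 to 7213923, minus strand) encodes the main carrier of IGF in blood. It was at 28.2, 25.7 and 6.9 CPM in C12, 27.4, 25.6 and 12 CPM in ih_CTC, 6.85, 13.2 and 24.5 CPM in ih_DCTC, 22.9, 6.39 and 18.5 CPM in ih_STC_BM and 27, 9.04 and 40.4 CPM in ih_BCTC. MDSC held 0.221, 0.24 and 0.213 CPM, from 6 counts in all, and the MSC libraries were far apart at 0.625 and 9.22 CPM. All line libraries were above MDSC. ih_CTC was above both MSC libraries as well, and the other 4 lines overlapped MSC. The log2 fold change over MDSC was 6.42 ± 1.07 (SE; edgeR adjusted p = 6.36e-05) in C12, 6.52 ± 1.07 (SE; edgeR adjusted p = 5.70e-05) in ih_CTC and 5.98 ± 1.06 (SE; edgeR adjusted p = 0.000121) in ih_DCTC. Igfbp3 reached 10 counts in 2 libraries in the 5 lines alone, the groups where it is high. Its values in the lines against MDSC and MSC are thus a description. Over MSC the log2 fold change was 1.58 to 2.36 in the 5 lines and passed in none (adjusted p of 0.0507 to 0.185). Without the second MSC library the values were 4.55 to 5.32. They rest on the first MSC library alone, at 0.625 CPM, so no test is given for them. With both MSC libraries, ih_BCTC was called under upper quartile scaling, DESeq2, limma-voom, the intron covariate, without the low-intron libraries and without its second library (2.30 to 3.03). ih_CTC was called under DESeq2, limma-voom, the covariate and without the low-intron libraries (2.06 to 2.95), and C12 under DESeq2 and without the third C12 library (2.05 and 2.44).

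Igfbp7 (ENSMUSG00000036256, chromosome 5, 77349240 to 77408045, minus strand) encodes a secreted protein of vessel walls and matrix that binds IGF weakly. It was at 16.3, 20.8 and 19.4 CPM in C12, 18.6, 19.3 and 20.7 CPM in ih_CTC, 42.7, 22.6 and 218 CPM in ih_DCTC, 4.07, 2.33 and 7.19 CPM in ih_STC_BM and 6.68, 24.5 and 10.7 CPM in ih_BCTC. MDSC held 0.442, 1.08 and 0.852 CPM and MSC 358 and 295 CPM. The lines lay between the untransformed groups without overlap, and the third ih_DCTC library was the highest of the 15 line libraries. Igfbp7 was higher than MDSC by 4.56 ± 0.79 (SE; edgeR adjusted p = 9.25e-05) in C12, 4.61 ± 0.79 (SE; edgeR adjusted p = 8.58e-05) in ih_CTC and 6.88 ± 0.84 (SE; edgeR adjusted p = 2.14e-06) in ih_DCTC. It was lower than MSC in ih_STC_BM (-6.19 ± 0.79, SE; edgeR adjusted p = 1.24e-05) and in ih_BCTC (-4.55 ± 0.73, SE; edgeR adjusted p = 0.000107), and likewise in C12 (-4.12) and ih_CTC (-4.06). The ih_DCTC value, -1.79 ± 0.67 (SE; edgeR adjusted p = 0.0488), passed narrowly, and 4 of the 5 fits without one of its libraries or MSC libraries did not call it (-1.33 to -1.93; adjusted p of 0.106 to 0.186). Endothelial markers summed to 0.653 to 12 CPM in the lines, 112.2 to 118.9 CPM in MDSC and 91 to 93.7 CPM in MSC. In MDSC most of this sum was Pecam1 (102, 108 and 107.4 CPM), and Cdh5, Kdr, Tek and Emcn were at 1.443 CPM or less. In the first MSC library most of it was Vwf (85.2 CPM). Macrophage markers summed to 38.4 to 197.5 CPM in the lines, 9737 to 9985 CPM in MDSC and 20940 to 28270 CPM in MSC. The part of either in the Igfbp7 levels was not tested.

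Igfbp5 (ENSMUSG00000026185, chromosome 1, 72857932 to 72874884, minus strand) encodes a binding protein that attaches to matrix, and Igfbp2 (ENSMUSG00000039323, chromosome 1, 72824503 to 72852474, plus strand) one that also binds integrins on cells. The genes are neighbours on chromosome 1, with their ends 5457 bases apart. Igfbp5 was at 0 to 0.271 CPM in the 15 line libraries, from 0 to 4 counts summed over each line, against 0.662, 0.962 and 1.39 CPM in MDSC and 129 and 42.5 CPM in MSC. Every line library was below every MDSC library, and MDSC was below MSC. With 0 counts, ih_STC_BM was at least 680-fold lower than MSC, against a floor of 3 counts over the group. Against MSC, Igfbp5 was 2825-fold (95% counting interval 506 to 111600) lower in ih_CTC and 1331-fold (95% counting interval 368 to 11000) lower in ih_DCTC, ratios given as a description, since Igfbp5 entered the fit through MSC alone. Against MDSC it was 34.6-fold (95% counting interval 5.71 to 1418) lower in ih_CTC and 16.3-fold (95% counting interval 4.1 to 142) lower in ih_DCTC, and in C12 the log2 fold change was -2.88 ± 0.86 (SE; edgeR adjusted p = 0.00911). The C12 call was lost with intron share as a covariate (-3.59, edgeR adjusted p = 0.246), as was the ih_DCTC call (-4.34, edgeR adjusted p = 0.0908). Without the libraries under 3% intron reads, which left the third C12 library alone, C12 was at -2.03.

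For Igfbp2, C12 had 0 counts and ih_BCTC 1, while ih_CTC held 0.192, 0.0816 and 0 CPM, ih_DCTC 0.124, 0.0752 and 0.635 CPM and ih_STC_BM 8.63, 0.304 and 0 CPM. MDSC had 1 count and MSC 9.16 and 4.04 CPM. The first ih_STC_BM library, at the level of MSC, was alone among the lines, and the others of its group were at or near 0. Igfbp2 was at least 65.9-fold lower in C12 than in MSC, 229.8-fold (95% counting interval 40.5 to 9143) lower in ih_BCTC and 73.1-fold (95% counting interval 24.5 to 359) lower in ih_CTC. These and the following values against MSC are a description, since Igfbp2 also entered the fit through MSC alone. ih_DCTC was lower on the log2 scale, at -4.50 ± 1.41 (SE; edgeR adjusted p = 0.0212). With intron share as a covariate neither ih_DCTC (-3.52, edgeR adjusted p = 0.0533) nor ih_CTC (-4.19, edgeR adjusted p = 0.089) was called, and ih_DCTC was not called without its first or second library or the first MSC library either (adjusted p of 0.0664 to 0.118). ih_STC_BM did not pass (-1.14 ± 1.22, SE; edgeR adjusted p = 0.514) and was at -5.17 (edgeR adjusted p = 0.00578) without its first library. Against MDSC, ih_DCTC was 7.45-fold (95% counting interval 1.03 to 326) higher without passing (edgeR adjusted p = 0.283), and C12 and ih_CTC had, like MDSC, 3 or fewer counts, which gives no fold.

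Between the untransformed groups, MDSC was lower than MSC in 7 members and higher in Igf1r. On the log2 scale Igfbp7 was at -8.67 ± 0.91 (SE; edgeR adjusted p = 8.50e-07), Igf1 at -6.86 ± 0.52 (SE; edgeR adjusted p = 2.08e-08) and Igfbp5 at -6.40 ± 0.71 (SE; edgeR adjusted p = 3.94e-06), and Irs1 was 252-fold (95% counting interval 69.4 to 2091) lower. Igfbp4 was at -3.81 ± 0.63 (SE; edgeR adjusted p = 0.000117) and Igfbp3 at -4.40 ± 1.11 (SE; edgeR adjusted p = 0.00368), a call that was lost without the second MSC library (-1.43, edgeR adjusted p = 0.435). Igfbp2 was 171-fold (95% counting interval 30.1 to 6797) lower (edgeR adjusted p = 0.00431). With intron share as a covariate the calls of Igfbp4 (-1.30), Igfbp5 (-5.59), Igfbp2 (-3.78) and Igfbp3 (-3.29) were lost (edgeR adjusted p of 0.0692 to 0.306), and with MDSC summed to 1 library those of Igfbp2 (adjusted p = 0.0753) and Igfbp3 (adjusted p = 0.0587). Igfbp2 and Igfbp5 entered the fit through MSC alone. In the order of group means, the lowest line exceeded MDSC by the test for Irs1 (ih_STC_BM, edgeR adjusted p = 1.15e-05), Igfbp4 (ih_BCTC, 2.40 on the log2 scale, adjusted p = 0.00171) and Igfbp7 (ih_STC_BM, 2.49, adjusted p = 0.0108), and for Igfbp6 the lowest line exceeded MSC (ih_BCTC, 5.33). Steps between neighbouring lines passed for Igfbp7 alone, where ih_DCTC stood above ih_CTC by 2.27 (edgeR adjusted p = 0.0373).

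Igfbp4, Igfbp6, Igfbp7 and Igfbp5 are shown by the 250 bases before their start in RefSeq (GRCm38.p6), because the first pair made up most of the binding protein RNA per length in the lines and the second pair was highest in MSC. The windows lie at chr11:99040994-99041243 on the plus strand for Igfbp4, chr15:102143936-102144185 on the plus strand for Igfbp6, chr5:77408046-77408295 on the minus strand for Igfbp7 and chr1:72874866-72875115 on the minus strand for Igfbp5. For Igfbp6 and Igfbp5 the RefSeq start is not that of the deposited annotation. Capitals mark TATAAA or GGGCGG, the TATA box and GC box cores, on either strand.
Igfbp4: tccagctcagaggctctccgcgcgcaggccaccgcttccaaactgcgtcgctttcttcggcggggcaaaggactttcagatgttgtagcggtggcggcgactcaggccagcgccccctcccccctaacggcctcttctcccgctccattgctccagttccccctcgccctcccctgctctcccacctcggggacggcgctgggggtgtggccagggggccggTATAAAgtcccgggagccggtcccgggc
Igfbp6: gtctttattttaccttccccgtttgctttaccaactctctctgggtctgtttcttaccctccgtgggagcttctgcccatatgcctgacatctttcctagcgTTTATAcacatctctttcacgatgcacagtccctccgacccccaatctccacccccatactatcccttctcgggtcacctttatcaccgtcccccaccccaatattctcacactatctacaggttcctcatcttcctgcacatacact
Igfbp7: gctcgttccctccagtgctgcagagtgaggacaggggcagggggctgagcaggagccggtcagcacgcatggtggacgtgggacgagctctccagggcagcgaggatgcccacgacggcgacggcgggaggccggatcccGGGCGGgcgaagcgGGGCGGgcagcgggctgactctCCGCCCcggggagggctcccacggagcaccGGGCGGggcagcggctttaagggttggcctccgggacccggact
Igfbp5: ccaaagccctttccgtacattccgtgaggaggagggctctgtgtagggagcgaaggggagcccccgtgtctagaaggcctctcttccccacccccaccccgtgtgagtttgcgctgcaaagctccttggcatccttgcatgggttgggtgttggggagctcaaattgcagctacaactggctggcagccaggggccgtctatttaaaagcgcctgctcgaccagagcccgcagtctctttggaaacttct
Igfbp4 has 1 TATAAA, 28 bases before the start, and Igfbp6 has 1 on the reverse strand, 148 bases before it; 12.3% of 32544 RefSeq windows of this length hold one. Igfbp7 has 4 GGGCGG and the other 3 windows none, a motif found in 33% of windows. CG dinucleotides, the sites of DNA methylation, number 22 in the Igfbp4 window, 7 in Igfbp6, 26 in Igfbp7 and 10 in Igfbp5, against a median of 6, and 14.9%, 46.6%, 9.67% and 38.1% of windows hold at least as many. The Igf1r window has 42, a number reached by 0.873% of windows, and that of Igf1 has 5, reached by 55.9%. For Igf1r and Igf1 the RefSeq start is likewise not that of the deposited annotation. A match is a description of these letters and shows no binding.

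Per kilobase of exon, the 6 binding protein genes summed to 797 ± 350.4 CPM per kb in C12, 368 ± 33.9 in ih_CTC, 624 ± 433 in ih_DCTC, 934 ± 449 in ih_STC_BM and 225 ± 35.5 in ih_BCTC, against 15.9 ± 0.662 in MDSC (SD, n = 3 each) and 470.1 ± 138 in MSC (SD, n = 2). By gene, Igfbp6 averaged 558 CPM per kb in C12 and 722 CPM per kb in ih_STC_BM, where Igf1r, the receptor, averaged 1.62 and 2.14 CPM per kb. MDSC was low in this sum, and the lines and MSC overlapped in part. The makeup of the sum set the lines apart. Igfbp6 made up 68.1% ± 6.9 of it in C12, 54.7% ± 1.98 in ih_CTC, 60.5% ± 5.9 in ih_DCTC, 78.4% ± 3.3 in ih_STC_BM and 60.9% ± 5.81 in ih_BCTC, against 15.1% ± 4.45 in MDSC and 0.815% ± 0.617 in MSC. Igfbp4 led in MDSC with 79.2% ± 4.53 and held 13.8% to 40.5% in the line libraries and 29.9% and 42.7% in MSC. Igfbp7 led in MSC with 58.9% ± 9.45, against 0.303% to 30.9% in the line libraries and 4.15% ± 1.77 in MDSC. The ranges of the Igfbp6 share in the lines (53.1% to 82.1%), MDSC (10.0% to 18.4%) and MSC (0.379% and 1.25%) did not overlap, and no test was run on these shares.

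**Figure D3:**
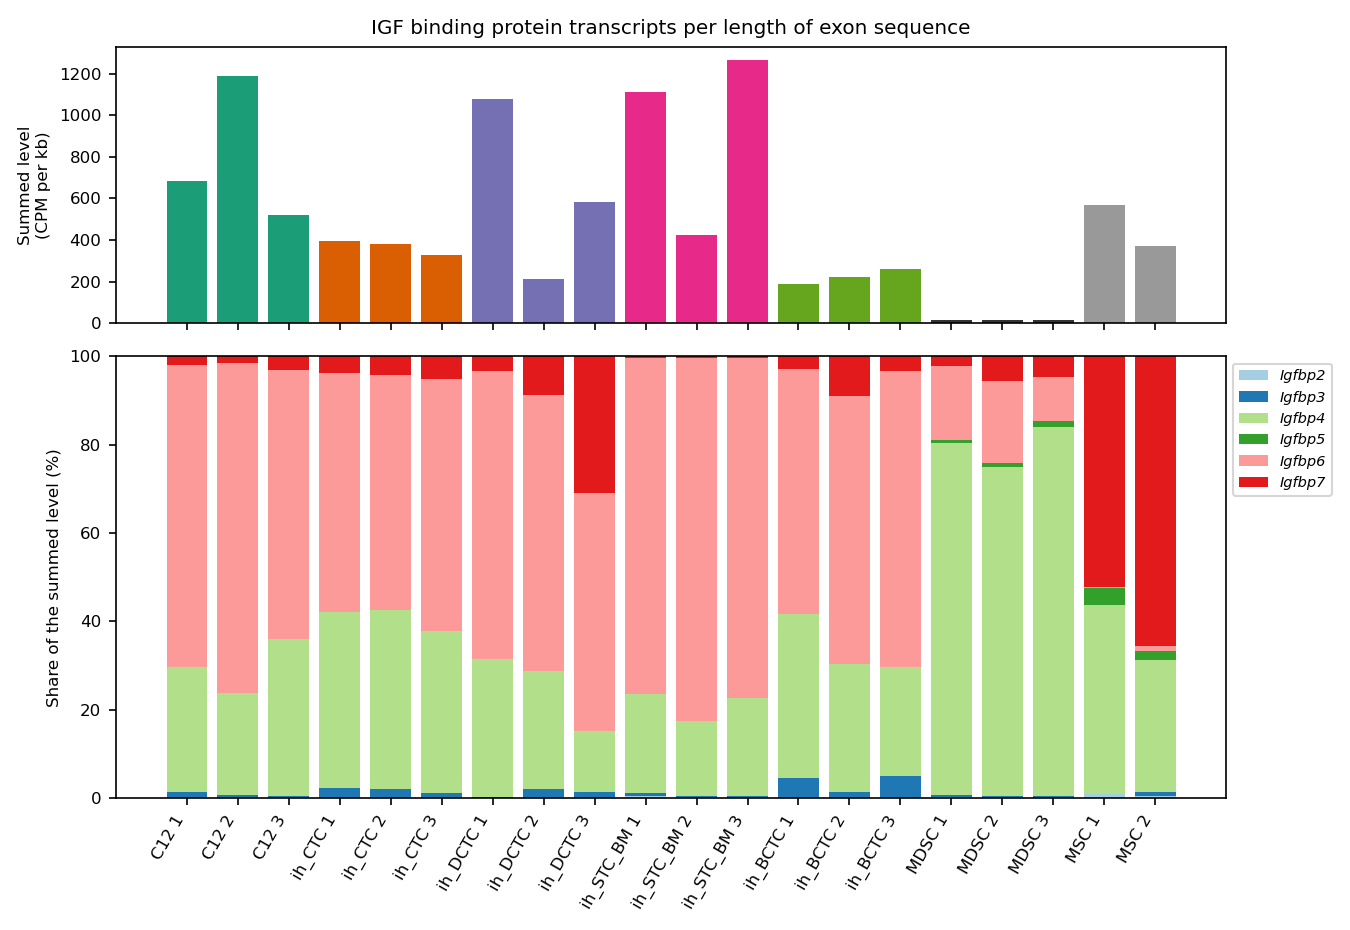
Summed level of the 6 binding protein genes per kilobase of exon (top, CPM per kb) and the share of each gene in that sum (bottom, percent), by library, for the 5 lines, MDSC and MSC. Igfbp6 is the largest part in all 15 line libraries, Igfbp4 in the 3 MDSC libraries and Igfbp7 in the 2 MSC libraries.

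Within the lines, the levels of Igfbp4 and Igfbp6 moved with how many reads fell in introns. Across 15 line libraries, Pearson's r between log2(CPM + 0.5) and that share was -0.76 for Igfbp4 and -0.78 for Igfbp6, against -0.17 for Igfbp3 and -0.08 for Igfbp7, a description over libraries that share 5 cell sources. In the 5 line libraries under 3% intron reads (C12 1 and 2, ih_DCTC 1, ih_STC_BM 1 and 3), Igfbp4 was at 853.5 to 1492 CPM (median 1214), against 253.5 to 812.9 CPM (median 335) in the other 10. Igfbp6 was at 519 to 1081 CPM (median 942) in those 5, against 117 to 386 CPM (median 216.5) in the other 10. The ranges did not overlap for either gene. What part intron share plays in the levels was not tested. The Igfbp6 differences between lines were smaller in fits that use it. C12 over ih_BCTC was 2.01, against 1.05 with the share as a covariate and 1.21 without the 5 libraries. ih_CTC over ih_STC_BM was -1.85, against -1.04 and -0.79 in the same fits, and ih_STC_BM over ih_BCTC was 2.38, against 1.76 and 1.33.

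**Figure D4:**
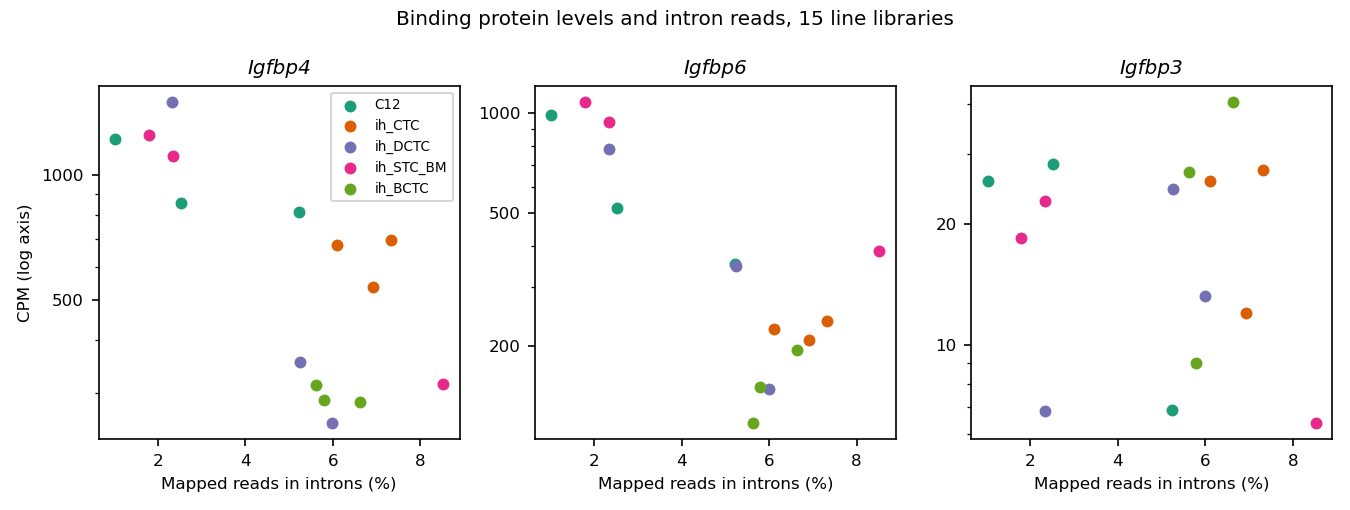
Levels of Igfbp4, Igfbp6 and Igfbp3 (CPM, log axis) against the percentage of mapped reads in introns in the 15 line libraries, coloured by line. Igfbp4 and Igfbp6 are highest in the 5 libraries under 3% intron reads, and Igfbp3 is spread over its range at both ends.

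The lines were also set against each other, in 10 pairs. No member was called between C12 and ih_CTC (16.5% of tested genes called in either direction), between ih_CTC and ih_BCTC (6.29%) or between ih_DCTC and ih_BCTC (0%, where edgeR called 0 of 15779 genes). One member was called between C12 and ih_DCTC (12.2%), C12 and ih_STC_BM (7.53%), ih_CTC and ih_DCTC (8.21%) and ih_DCTC and ih_STC_BM (10.9%). C12 and ih_BCTC differed in 2 (20%), ih_CTC and ih_STC_BM in 4 (18.2%) and ih_STC_BM and ih_BCTC in 2 (20.4%). Of these calls, 2 held with intron share as a covariate and with each library left out, with sizes that moved. Igfbp7 was higher in ih_DCTC than in ih_STC_BM by 4.40 ± 0.72 (SE; edgeR adjusted p = 0.000686), and 2.86 without the third ih_DCTC library. Igfbp6 was higher in ih_STC_BM than in ih_BCTC by 2.38 ± 0.54 (SE; edgeR adjusted p = 0.0065). Without the libraries under 3% intron reads, which left the second ih_STC_BM library alone, they were 5.62 and 1.33. Igfbp7 was at 42.7, 22.6 and 218 CPM in ih_DCTC and 4.07, 2.33 and 7.19 CPM in ih_STC_BM, with no overlap. Igfbp6 was at 386 CPM or more in ih_STC_BM and at 194.6 CPM or less in ih_BCTC.

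Other genes of the pathway were followed through 3 lists. Of 16 further genes for IGF and insulin ligands, receptors and adaptors, 12 were tested, and 5 were higher and 2 lower than MDSC in C12 (31.3% and 30.5% of all tested genes), 6 higher and 2 lower in ih_CTC (28.2% and 27.1%) and 6 higher and 2 lower in ih_DCTC (31.2% and 28.1%); their median log2 fold changes were 0.15, 0.97 and 1.51, against 0.03, 0.08 and 0.09 over all genes. Grb14, whose product inhibits insulin receptor signalling, was at 74 ± 13.1 CPM in C12, 76.4 ± 11.8 in ih_CTC and 74.8 ± 32.2 in ih_DCTC, against 0.412 ± 0.229 in MDSC (SD, n = 3 each), log2 fold changes of 7.45 to 7.49 (edgeR adjusted p of 4.24e-09 to 5e-09). Ghr, the growth hormone receptor gene through which Igf1 is induced in liver, was at 44.6 ± 25.2, 45.5 ± 1.67 and 68 ± 31 CPM in the same lines, against 0.313 ± 0.354 CPM in MDSC, log2 fold changes of 7.15 to 7.76 (edgeR adjusted p of 1.92e-06 to 4.4e-06). Grb2, which encodes an adaptor to the RAS pathway, was lower than MDSC in C12, ih_CTC and ih_DCTC and lower than MSC in all 5 lines, with log2 fold changes of -1.07 in C12 to -1.49 in ih_CTC over MDSC and of -1.41 in ih_STC_BM to -1.99 in ih_BCTC over MSC. Against MSC, 2 of the 12 were higher and 2 lower in ih_STC_BM (14.8% and 17.4% of all tested genes), 5 and 2 in ih_BCTC (15.9% and 20.8%), 3 and 2 in C12 (14.7% and 18.4%), 2 higher and 2 lower in ih_CTC (14.7% and 19.9%), 5 higher and 2 lower in ih_DCTC (16% and 18.1%) and 1 and 6 in MDSC (20.4% and 25.6%).

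Of 16 genes for other binding proteins and the proteases and cofactors that act on them, 11 were tested. Against MDSC, 5 were higher and 1 lower in C12 (31.3% and 30.5% of all tested genes), 6 higher and 3 lower in ih_CTC (28.2% and 27.1%) and 7 higher and 1 lower in ih_DCTC (31.2% and 28.1%), with median log2 fold changes of 3.17, 3.85 and 4.08 against the same medians of all genes. Htra1, a secreted protease that cuts IGF binding proteins, was at 117 ± 43.2 CPM in C12 and 208 ± 16.3 CPM in ih_CTC, against 0.399 ± 0.318 CPM in MDSC (SD, n = 3 each), and in ih_STC_BM it was at 391 ± 59.1 CPM (SD, n = 3), against 34.3 ± 11 CPM in MSC (n = 2), a log2 difference of 3.51 ± 0.49 (SE; edgeR adjusted p = 3.22e-05). Against MSC, where 14.7% to 16% of all tested genes were higher and 17.4% to 20.8% lower in a line, 1 of the 11 was higher and 4 lower in ih_STC_BM, 2 and 5 in ih_BCTC, 2 and 6 in C12, 4 higher and 5 lower in ih_CTC and 4 higher and 5 lower in ih_DCTC. In MDSC 0 were higher and 9 lower (20.4% and 25.6%). Pappa, the gene of the protease that frees IGF from the IGFBP4 protein, had 1 count each in ih_BCTC and ih_CTC, against 14.5 and 3.95 CPM in MSC. That is 316-fold (95% counting interval 55.9 to 12530) and 301-fold (95% counting interval 53.4 to 11950) lower. These ratios are a description, since Pappa entered the fit mainly through MSC and was at 1.825 CPM or less in every library outside it. Stc2, whose product inhibits that protease, was higher than MSC in ih_BCTC, C12, ih_CTC and ih_DCTC by 2.26 to 3.97 (edgeR adjusted p of 0.00189 to 0.0407). Stc1, also of this list, was split between the lines. It was lower than MSC in ih_STC_BM (-4.60 ± 0.78, SE; edgeR adjusted p = 0.000227) and 351-fold (95% counting interval 62.4 to 13930) lower in C12. Libraries of ih_CTC, ih_DCTC and ih_BCTC held 16.6 to 95.9 CPM, against 6.04 and 15.8 CPM in MSC. Cd93, which encodes a receptor for the IGFBP7 protein on endothelial cells, was at 1.27 ± 0.585 CPM in ih_STC_BM (SD, n = 3), against 387 ± 15.8 CPM in MSC (n = 2).

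The 20 genes of the PI3K and AKT branch were all tested. Against MDSC, 5 were higher and 8 lower in C12 (31.3% and 30.5% of all tested genes), 3 higher and 3 lower in ih_CTC (28.2% and 27.1%) and 3 higher and 4 lower in ih_DCTC (31.2% and 28.1%). Against MSC, with the same 14.7% to 16% and 17.4% to 20.8% over all genes in a line, 1 was higher and 1 lower in ih_STC_BM, 3 and 1 in ih_BCTC, 2 and 1 in C12, 1 higher and 1 lower in ih_CTC and 4 higher and 1 lower in ih_DCTC. In MDSC 6 were higher and 2 lower (20.4% and 25.6%). The 1 gene lower than MSC in every line was Pik3cd, the PI3K subunit gene of leukocytes, at 0.408 to 5.72 CPM in the line libraries, against 292, 277 and 274 CPM in MDSC and 102 and 112 CPM in MSC. Pik3r2, a regulatory subunit gene, was higher than MDSC in C12, ih_CTC and ih_DCTC (1.95 to 2.53, edgeR adjusted p of 5.03e-07 to 8.36e-06). Over MSC it was called higher in ih_STC_BM and C12, and its tests in the other lines are not given. Every line library held 87.3 to 206.9 CPM of it, above both MSC libraries (66.7 and 55.7 CPM). The list holds Pdk1, which in mouse is the gene of a pyruvate dehydrogenase kinase and was higher than MDSC in ih_CTC and ih_DCTC (2.28 and 2.34). Median log2 fold changes of the branch were -0.63 to -0.33 against MDSC and 0.18 to 0.30 in the lines against MSC.

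The genes whose log2 CPM ran most like each member over the 20 libraries were listed by Pearson's r, a description over libraries that share 7 cell sources and their depth. For Igf1 they were Cdkn2b (r = 0.978) and Awat1 (0.977), and for Igfbp5 they were Awat1 (0.983) and Ms4a14 (0.979); Igf1 and Igfbp5 themselves had r = 0.95. Cdkn2b, a cell cycle inhibitor gene, was at 0.0338 CPM or less on average in the lines, 0.598 CPM in MDSC and 32.1 CPM in MSC. Igfbp6 ran with Ngfrap1 (0.986) and Bri3bp (0.976), Igfbp4 with Cul7 (0.955) and Gas8 (0.952), and Igfbp3 with Ttc9 (0.955) and Mb21d2 (0.946). Irs1 ran with Plxna2 (0.976) and the fibrillin gene Fbn1 (0.963), which averaged 72 to 297 CPM in the lines, 0.856 CPM in MDSC and 143 CPM in MSC. The likeness was weaker for Igfbp7 with P2rx4 (0.911), Igfbp2 with Srpx (0.903) and Fmod (0.886), and Igf1r with Hira (0.867) and Nt5dc3 (0.821).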

How the data were processed

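Gene expression in 20 libraries was analysed from a deposited table of expected counts for 43432 genes, which the authors did not normalize, as its values show; 8.37% were not whole, and they were rounded. RSEM 1.2.26, STAR and DESeq2 appear in the submitters' processing notes with no role, and no source used here gives the build. The authors also deposited alignment measures, of which the share of reads in introns was used; 67.4% to 77.0% of reads mapped. One marker, Adgre1, is listed under its older name Emr1.

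Groups were taken from the labels. edgeR 4.0.16 in R 4.3.3 fitted all 20 libraries (TMM scaling, filter of 10 counts per library and 15 in total by group, robust quasi-likelihood, 13 residual degrees of freedom), and 15779 genes were tested. Adjusted p-values follow Benjamini and Hochberg within a comparison, over all tested genes, with a threshold of 0.05. The fit was tested on simulated data. The 9 members, the 3 pathway lists with 52 genes and the 8 marker lists with 75 genes were chosen with earlier results of these data known. Named were all members; from each pathway list, up to 2 called genes per direction and comparison with the largest change at a mean of at least 5 CPM, and any ligand, receptor or adaptor gene; and, for each member, the 2 protein-coding genes with the highest Pearson's r of log2 CPM (prior count 2), of which 1 is not reported here. For a group with 0 counts the fold is a bound against 3 counts over the group; for 1 to 3 counts it is a ratio with a 95% interval. Both cover counting error only.

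Alternatives were upper quartile or RLE scaling, no filter, DESeq2 1.42.0, limma-voom (limma 3.58.1), the compared groups alone, a log2 fold change above 1, intron share as a covariate, leaving out line libraries under 3% intron reads, MDSC libraries summed to 1, and each library left out. Those on pairs of lines were chosen after seeing the data. Leaving out the low-intron line libraries left the third C12 and the second ih_STC_BM library alone in their groups. Both MSC libraries were kept there. Promoter windows are from RefSeq (GRCm38.p6), where all 9 members were matched. Figures were drawn with matplotlib 3.10.9.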

Additional observations from a re-analysis of the deposited data

Results flagged for a closer look

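Of the differences of the 9 members in the 10 pairs of lines, 12 passed the edgeR test of the difference itself. Of all tested genes, 0% to 20.4% were called in a pair of lines. No result about the members as a set is read from this count. Lines are set against the same MDSC or MSC libraries, which cancel, so a difference is the same whichever group is used. For Igfbp7, C12 minus ih_DCTC was -2.33 ± 0.64 (SE; edgeR adjusted p = 0.0241), from log2 fold changes of 4.56 and 6.88 against MDSC and of -4.12 and -1.79 against MSC. Likewise ih_CTC minus ih_DCTC was -2.27 ± 0.64 (SE; edgeR adjusted p = 0.0373), from 4.61 and 6.88 against MDSC and -4.06 and -1.79 against MSC. Without the third ih_DCTC library these were -0.79 (edgeR adjusted p = 0.374) and -0.74 (edgeR adjusted p = 0.42). Against ih_STC_BM, Igfbp7 was higher in ih_DCTC by 4.40 and in ih_CTC by 2.12 (edgeR adjusted p = 0.000686 and 0.0354), the first of which was 2.86 (edgeR adjusted p = 0.00203) without the third ih_DCTC library.

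Igfbp6 was higher in ih_STC_BM than in ih_BCTC by 2.38, higher in C12 than in ih_BCTC by 2.01 and lower in ih_CTC than in ih_STC_BM, at -1.85 (edgeR adjusted p = 0.0065, 0.0137 and 0.0249). Without the line libraries under 3% intron reads, the first of these was 1.33, the second 1.21 and the third -0.79. These values rest on a single ih_STC_BM or C12 library, so no test is given for them. Igfbp4 was higher in C12 than in ih_BCTC by 1.70 (edgeR adjusted p = 0.0397), and 0.72 (edgeR adjusted p = 0.165) with intron share as a covariate. Irs1 was higher in ih_CTC than in ih_STC_BM by 1.71 (edgeR adjusted p = 0.0403). It was 0.85 without the line libraries under 3% intron reads, where ih_STC_BM kept its second library alone.

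Igfbp2 differed between ih_STC_BM and C12, ih_CTC and ih_BCTC through the first ih_STC_BM library. The fitted differences, which rest on 3 or fewer counts in the other line and are no bounds, were -7.95 for C12 minus ih_STC_BM, -4.90 for ih_CTC minus ih_STC_BM and 6.22 for ih_STC_BM minus ih_BCTC (edgeR adjusted p = 0.0271, 0.0357 and 0.0197). Without that library they were -3.93, -0.87 and 2.19 (edgeR adjusted p of 0.264 to 0.728).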

How the results depend on the processing

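No paired analysis was possible because the labels give no replicate numbers that groups share. Of 81 log2 fold changes of members, 80 kept direction and call under RLE scaling, 78 under upper quartile scaling, 79 with no filter, 76 under limma-voom, 80 with a log2 fold change above 1, 60 with intron share as a covariate and 70 without the line libraries under 3% intron reads. For DESeq2 it was 64 of 72, for the compared groups alone 70 of 74, with MDSC summed 34 of 36 and with a library left out 398 of 432. The number of members lower than MDSC, 2 in each line, became 1 in C12, ih_CTC and ih_DCTC in the compared groups alone, 0 in C12 and 1 in ih_DCTC with the covariate, and 1 in C12 without the low-intron libraries. Members higher than MSC became 1 in ih_STC_BM in the compared groups alone, 1 in C12 with no filter, limma-voom, the compared groups alone, a log2 fold change above 1 and without the low-intron libraries, 4 in ih_CTC with the covariate, and 2 in ih_DCTC under upper quartile scaling, DESeq2, the covariate and without the low-intron libraries. Members lower than MSC became 5 in ih_STC_BM without the low-intron libraries and 3 in MDSC with the covariate. With a library left out, members higher than MSC numbered 1 to 3 in ih_STC_BM, 1 to 3 in ih_BCTC, 1 to 3 in C12 and 1 to 2 in ih_DCTC, where 2 to 4 were lower. Sign changes were few. Igf1r in ih_CTC over MDSC was -0.03 under RLE and -0.03 under DESeq2. With the covariate, Igfbp2 in ih_CTC over MDSC was -0.41, and over MSC Irs1 in ih_CTC was -0.92, Igfbp4 was 1.14 in ih_CTC and 0.21 in ih_DCTC, and Igfbp6 in MDSC was 1.44. Igfbp4 in ih_STC_BM over MSC was -1.34 without the low-intron libraries. With a library left out, values over MSC spanned -0.28 to 0.85 for Igfbp4 in ih_STC_BM, -0.16 to 0.96 in C12, -0.75 to 0.37 in ih_CTC and -1.31 to 0.51 in ih_DCTC, -0.06 to 0.57 for Irs1 in C12, and -0.96 to 0.15 for Igfbp6 in MDSC. The cause of these changes was not tested. Upper quartile scaling moved the median of all genes to 0.30, 0.25 and 0.31 in C12, ih_CTC and ih_DCTC over MDSC. Depth limits Igf1, Igfbp2 and Igfbp5 in the lines, where few counts were seen.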
